A study of Homo sapiens with 9 samples.

Results

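Kinesin genes encode the motor proteins that walk along microtubules or take them apart, and tubulin genes encode the subunits from which microtubules are built. Mitotic kinesins assemble the spindle, align and separate the chromosomes and help to cut the daughter cells apart, and their transcripts accumulate late in the cell cycle in dividing cells. Transport kinesins carry vesicles, organelles, RNA and ciliary cargo through the cytoplasm. Microtubules are polymers of alpha and beta tubulin dimers, of which human cells have several isotypes, and gamma tubulin seeds new microtubules at the centrosome. Genes were taken from the deposited expression table by symbol: KIF followed by digits, KIFC1 to KIFC3, and names that begin with TUBA, TUBB, TUBG, TUBD or TUBE followed by a letter or digit, without pseudogenes and without names that hold a hyphen. This gave 65 of 60612 genes, 42 kinesins and 23 tubulins. By known role the kinesins were split into 14 mitotic, 18 transport and 10 other kinesins, and the tubulins into 10 alpha, 9 beta and 4 gamma, delta or epsilon tubulins. CENPE, the kinetochore kinesin, and TUBB, the main beta tubulin gene, do not match the pattern and were not counted as members. CENPE was listed with the spindle partners, and TUBB was described beside the beta tubulins.

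The RNA came from MDA-MB-231, an established human triple-negative breast cancer line with mesenchymal traits. Cells were transfected for 48 hours with MILIP siRNA2, MILIP siRNA1 or a control siRNA, with 3 libraries in each group and 9 in all. Both MILIP siRNAs are meant to deplete MILIP, a long noncoding RNA, so the comparisons with the control siRNA ask which transcripts move when it is lost, and siRNA2 against siRNA1 asks whether the reagents differ. No label states that replicate libraries were grown or transfected separately, and the p-values therefore measure the variation among these libraries alone, technical variation included. Both comparisons with control use the same 3 control libraries.

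MILIP, which the table lists as MAFG-DT, averaged 0.615 ± 0.315 CPM with MILIP siRNA2, 1.24 ± 0.641 CPM with MILIP siRNA1 and 8.4 ± 0.254 CPM with control siRNA (SD, n = 3 each). CPM here means counts per 1e+06 counts of a library after TMM scaling. The log2 fold change against control siRNA was -3.73 with siRNA2 and -2.74 with siRNA1. Set directly against siRNA1, siRNA2 gave MILIP a log2 fold change of -0.99, which was called lower though the libraries overlapped. A difference between the siRNAs in other genes therefore cannot be told apart from a difference in MILIP loss. Libraries held 15281220 to 19759371 gene counts. VIM, CD44, EGFR, KRT8 and KRT18, markers of this line, averaged 231 to 4774 CPM over the groups. They were not steady: EGFR was called lower and KRT8 higher with both siRNAs. CD44 and KRT18 were called in opposite directions, and VIM with siRNA2 only. Log2 fold changes of these 5 ran from -1.10 to 1.20 with siRNA1 and from -0.79 to 0.33 with siRNA2. ESR1 and PGR did not exceed 0.632 CPM, and the leukocyte marker PTPRC did not exceed 0.0187 CPM. With ERBB2, ESR1 and PGR summed to means of 72.5 CPM with siRNA2, 55.4 CPM with siRNA1 and 61.8 CPM with control siRNA. ERBB2 alone of these was tested, and it was called higher with siRNA2 (log2 fold change 0.23). PTPRC, PECAM1, EPCAM, MAP2 and RBFOX3, markers of other cell types, summed to 12.8, 10.5 and 12.2 CPM in the same order. Of these, PECAM1 was called in opposite directions by the siRNAs and EPCAM with siRNA2 only. With each siRNA about as many genes were called as not, so counts of calls are given with the share of all tested genes that was called. A call is an adjusted p below 0.05 in the quasi-likelihood test of edgeR, adjusted by Benjamini-Hochberg over 15345 tested genes.

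Of the 65 kinesin and tubulin genes, 46 had enough counts to be tested. With MILIP siRNA2, 40 of the 46 were called, 28 lower and 12 higher than with control siRNA, against 56.1% of all tested genes called, 28.9% lower and 27.2% higher. MILIP siRNA1 gave 22 calls, 15 lower and 7 higher, against 50.4% of all tested genes called, 25.3% lower and 25.1% higher. The median log2 fold change of the tested members was -0.33 with siRNA2 and -0.04 with siRNA1, beside -0.01 and 0.00 over all tested genes. MILIP siRNA2 was set directly against MILIP siRNA1 as well, and 33 members were called, 24 lower and 9 higher with siRNA2 (all genes: 60.4%, 32.0% lower and 28.4% higher).

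The siRNAs moved 16 members the same way. KIF13B, KIF15, KIF18B, KIF1C, KIF20B, KIF21B, KIF24, KIF2A, TUBA1B, TUBA1C, TUBB6 and TUBE1, 12 genes, were lower with both (11.1% of all tested genes). KIF3A, KIF3C, KIF6 and TUBB2A, 4 genes, were higher with both (11.8% of all tested genes). KIF13A, KIF20A, KIF9 and TUBB3, 4 genes, were called in opposite directions by the siRNAs (9.93% of all tested genes). A further 20 members were called with siRNA2 and not with siRNA1, and 2 (KIF1B and TUBA4A) with siRNA1 and not with siRNA2. Neither siRNA gave a call in 4 (KIF16B, KIF17, KIF27 and TUBA3D). Of all tested genes, 56.1% were called with siRNA2 and 50.4% with siRNA1. The all-gene shares called with 1 siRNA alone or with neither were not computed, so these counts are a description. All 3 libraries lay on 1 side of the control libraries in 39 members with siRNA2 (61.8% of all tested genes) and in 25 with siRNA1 (53.8% of all tested genes). A call with 1 siRNA and none with the other does not show that the siRNAs differ, and their difference was tested directly for each gene.

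**Figure D1:**
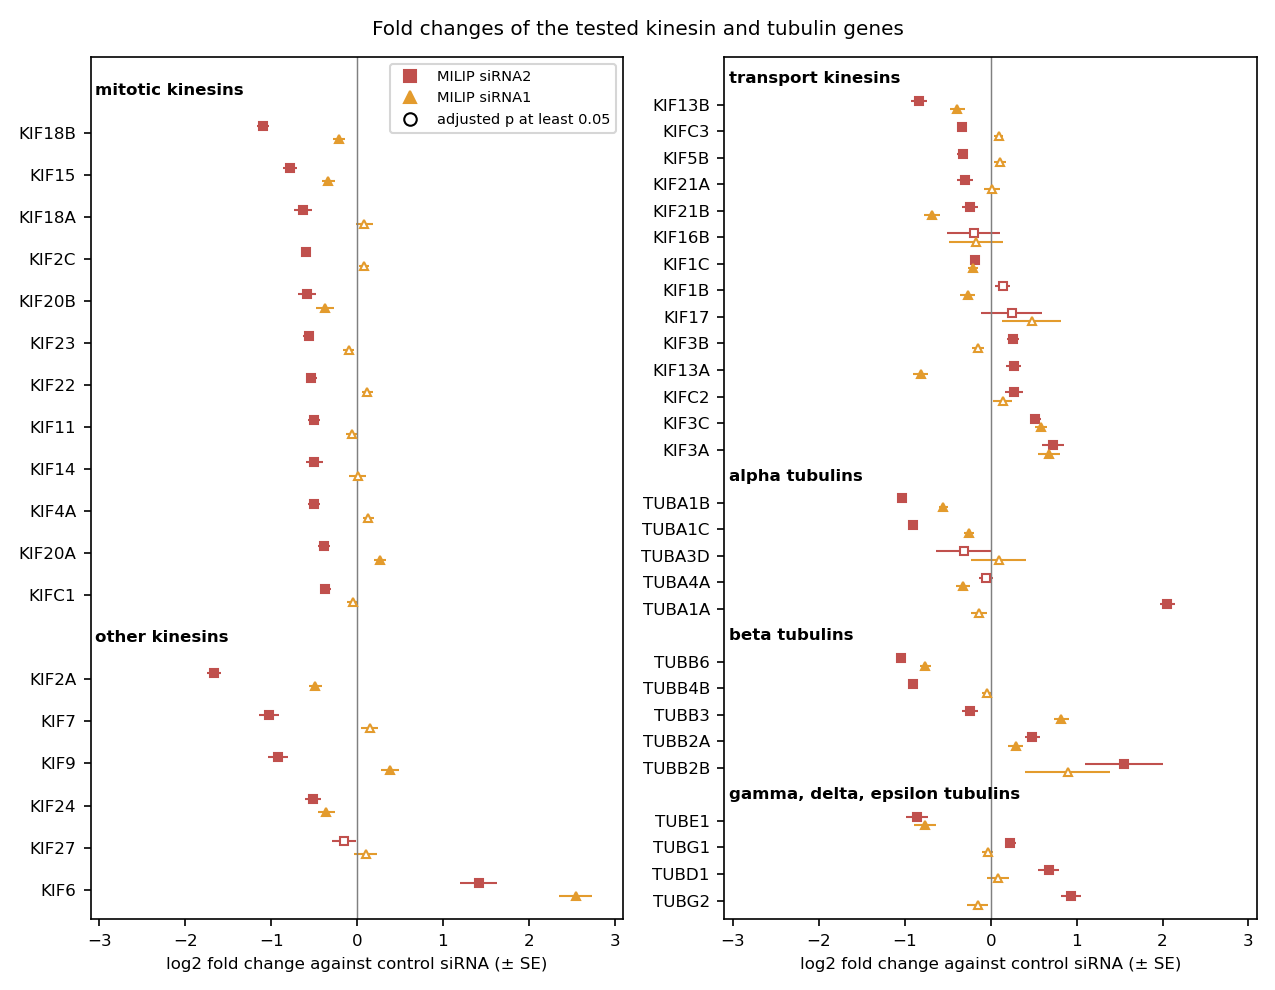
Log2 fold changes (± SE) of the 46 tested kinesin and tubulin genes against control siRNA, by class, with squares for MILIP siRNA2 and triangles for MILIP siRNA1. Filled symbols passed an adjusted p below 0.05. All 12 mitotic kinesins lie left of 0 with siRNA2, while with siRNA1 they lie between -0.37 and 0.27.

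Mitotic kinesins fell together with MILIP siRNA2. Of 14, 12 were tested, and all 12 were lower with siRNA2 than with control siRNA (28.9% of all tested genes), by -0.37 (KIFC1) to -1.10 (KIF18B) on the log2 scale, with a median of -0.55. With MILIP siRNA1, 3 were lower (KIF15, KIF18B and KIF20B), 1 was higher (KIF20A) and 8 were not called, with a median of -0.02. These counts compare with 25.3% lower and 25.1% higher over all tested genes, so the number lower with siRNA1 is near the background. Set against siRNA1 directly, siRNA2 gave 11 of the 12 at lower levels (32.0% of all tested genes), with a median of -0.57. The remaining one was KIF20B. The summed level of the class was 903, 1028 and 1014 CPM with MILIP siRNA2, 1370.0, 1492 and 1458 CPM with MILIP siRNA1, and 1431, 1426 and 1443 CPM with control siRNA. Each siRNA2 library lay below every other library, and siRNA1 and control libraries overlapped. In bulk RNA, fewer cells that make these transcripts and less of them per cell cannot be told apart.

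**Figure D2:**
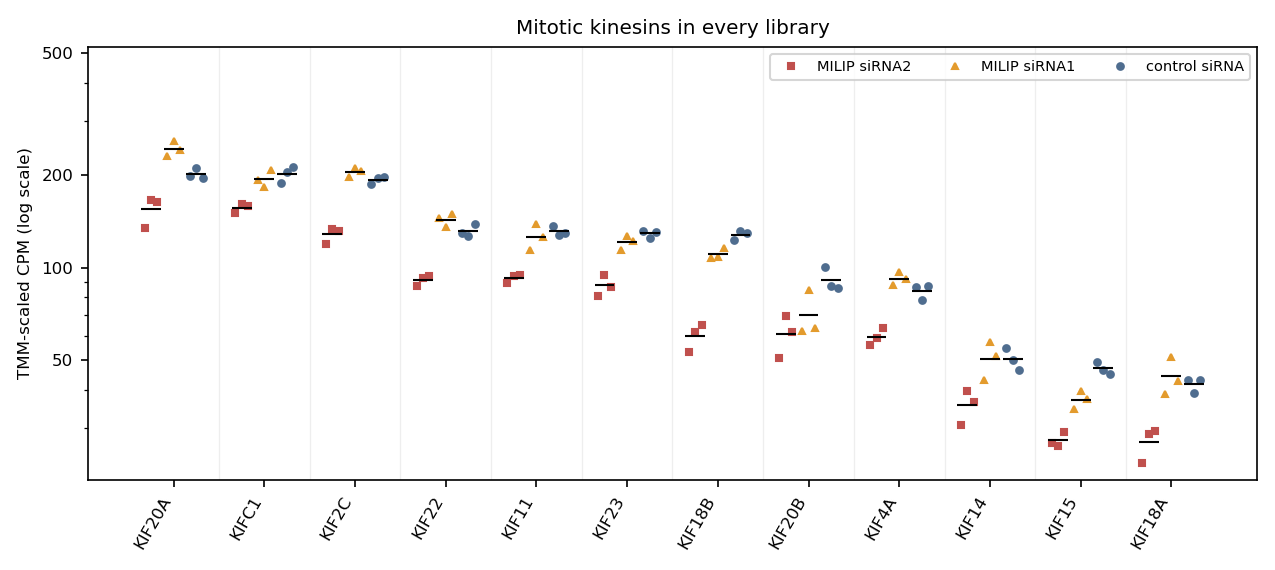
TMM-scaled CPM (log axis) of the 12 tested mitotic kinesins in each of the 9 libraries, with MILIP siRNA2 as squares, MILIP siRNA1 as triangles and control siRNA as circles, and black bars at the group means. In every gene the 3 siRNA2 libraries lie below the 3 control libraries.

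Promoters of these motors often carry words known from genes of late cell cycle. The table of RefSeq promoters (build GRCh38.p14, 250 bases before to 50 after the start) matched 57 of the 65 members. A cell cycle homology region (CHR) word, TTTGAA or TTCGAA on either strand, stood in 11 of 14 mitotic kinesin promoters, 1 of 13 of transport kinesins and 1 of 7 of other kinesins, and in 16.6% of all 27305 promoters. The CCAAT word on either strand stood in 11 of 14, 4 of 13 and 2 of 7 of these, and in 35.7% of all promoters. Of the tubulin promoters, 1 of 10 alpha, 1 of 9 beta and 0 of 4 gamma, delta or epsilon ones held a CHR word. CCAAT stood in 6 of 10, 4 of 9 and 2 of 4 of them, so it was not particular to the mitotic motors. Among the members no CHR match overlapped a CCAAT match. KIF2C and KIF20A, both tested, and KIF2B held no CHR word in this window. The 100 bases before the start are shown for 5 motors that hold both words in them, since these genes fell together with siRNA2. The windows are chr15:69414249-69414348 on the plus strand for KIF23, chr10:92593030-92593129 on the plus strand for KIF11, chr11:28108157-28108256 on the minus strand for KIF18A, chrX:70290004-70290103 on the plus strand for KIF4A and chr16:29790651-29790750 on the plus strand for KIF22. Each is printed from 5′ to 3′ on the strand of the gene, with the CHR word (or its complement TTCAAA) and the CCAAT word (or its complement ATTGG) in capitals.
KIF23: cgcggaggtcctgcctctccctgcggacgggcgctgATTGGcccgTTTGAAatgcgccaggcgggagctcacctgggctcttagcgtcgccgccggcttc
KIF11: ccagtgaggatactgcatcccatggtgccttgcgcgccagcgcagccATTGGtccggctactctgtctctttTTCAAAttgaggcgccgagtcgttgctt
KIF18A: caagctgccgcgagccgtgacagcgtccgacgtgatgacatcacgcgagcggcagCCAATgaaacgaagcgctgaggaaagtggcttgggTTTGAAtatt
KIF4A: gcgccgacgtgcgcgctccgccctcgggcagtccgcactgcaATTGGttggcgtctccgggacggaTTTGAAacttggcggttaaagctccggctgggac
KIF22: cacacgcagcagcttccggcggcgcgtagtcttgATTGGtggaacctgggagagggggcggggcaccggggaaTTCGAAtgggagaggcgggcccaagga
Counted from the start of transcription, the CHR word begins at -55 in KIF23, -28 in KIF11, -10 in KIF18A, -34 in KIF4A and -27 in KIF22. The CCAAT word begins at -64, -53, -45, -58 and -66 in the same order. A match is a description of the letters and not evidence that a factor binds there.

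Among the motors that build and size the spindle, KIF18B changed most. KIF18B, which limits the length of astral microtubules (chr17:44924709-44947773, minus strand, GRCh38), had 53, 62 and 65.1 CPM with MILIP siRNA2, 108, 108 and 116 CPM with MILIP siRNA1, and 123, 132 and 130.1 CPM with control siRNA. No groups overlapped, siRNA2 libraries being lowest (log2 fold change -1.10 ± 0.07, adjusted p = 2.89e-12) and siRNA1 libraries between them and control (log2 fold change -0.21 ± 0.07, adjusted p = 0.0142). Its call with siRNA1 was lost without control library 2 (adjusted p = 0.0559). KIF15, which helps to hold the spindle poles apart, had 26.9, 26.3 and 29.1 CPM with MILIP siRNA2, 34.7, 39.8 and 37.3 CPM with MILIP siRNA1, and 49.3, 46.4 and 45.2 CPM with control siRNA. It too fell with siRNA2 (log2 fold change -0.78 ± 0.08, adjusted p = 9.8e-09) and less with siRNA1 (log2 fold change -0.33 ± 0.08, adjusted p = 0.000985), with no overlap between any groups. KIF11, the plus-end motor that pushes the poles apart and the target of spindle-blocking drugs, averaged 92.7 ± 3.15 CPM with MILIP siRNA2, 126 ± 12.6 CPM with MILIP siRNA1 and 131 ± 4.44 CPM with control siRNA. It fell with siRNA2 (log2 fold change -0.50 ± 0.07, adjusted p = 8.18e-07), and with siRNA1 its libraries overlapped those of control (log2 fold change -0.06 ± 0.07, adjusted p = 0.52). KIFC1, a minus-end motor that focuses spindle poles and clusters extra centrosomes, had 151, 161 and 158 CPM with MILIP siRNA2, 193, 184 and 208 CPM with MILIP siRNA1, and 189, 204 and 213 CPM with control siRNA. Its fall with siRNA2 was the smallest of the class (log2 fold change -0.37 ± 0.06, adjusted p = 1.87e-05), and it was not called with siRNA1 (log2 fold change -0.05 ± 0.06, adjusted p = 0.535).

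The motors that act on chromosomes fell with siRNA2 and were not called with siRNA1. KIF18A, which damps chromosome movement at the metaphase plate, had 23, 28.6 and 29.3 CPM with MILIP siRNA2, 38.7, 51.2 and 42.9 CPM with MILIP siRNA1, and 43.1, 39 and 43 CPM with control siRNA. The siRNA2 libraries were below all others (log2 fold change -0.63 ± 0.10, adjusted p = 8.75e-06), and siRNA1 libraries overlapped control (log2 fold change 0.09 ± 0.10, adjusted p = 0.489). KIF2C, which takes microtubules apart at centromeres to correct wrong attachments, had 119.7, 134 and 132 CPM with MILIP siRNA2, 198, 211 and 206 CPM with MILIP siRNA1, and 187, 196 and 197 CPM with control siRNA. Every siRNA2 library was lower than every library of the other groups (log2 fold change -0.59 ± 0.06, adjusted p = 6.28e-09; siRNA1 log2 fold change 0.08 ± 0.06, adjusted p = 0.254). KIF22 and KIF4A, which sit on chromosome arms, averaged 91.1 and 59.5 CPM with siRNA2, 143 and 92.1 CPM with siRNA1, and 132 and 83.9 CPM with control siRNA. Both fell with siRNA2 (KIF22 -0.53, adjusted p = 8.7e-08; KIF4A -0.50, adjusted p = 1.49e-06), and neither was called with siRNA1 (KIF22 0.12, adjusted p = 0.104; KIF4A 0.13, adjusted p = 0.112). Without siRNA1 library 2 KIF22 was called higher with siRNA1 (adjusted p = 0.0345).

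The motors of the central spindle and of cytokinesis were mixed with siRNA1. KIF23, the motor subunit of centralspindlin, had 81.1, 95 and 86.8 CPM with MILIP siRNA2, 114, 127 and 122 CPM with MILIP siRNA1, and 132, 125 and 131 CPM with control siRNA. It fell with siRNA2 (log2 fold change -0.56 ± 0.07, adjusted p = 9.12e-08) and was not called with siRNA1 (log2 fold change -0.10 ± 0.07, adjusted p = 0.24). KIF20A, which brings the chromosomal passenger complex to the central spindle, had 135, 166 and 163 CPM with MILIP siRNA2, 231, 258 and 242 CPM with MILIP siRNA1, and 199.6, 211 and 196 CPM with control siRNA. The 3 groups did not overlap and the siRNAs went opposite ways, with siRNA2 lowest (log2 fold change -0.39 ± 0.07, adjusted p = 4.07e-05) and siRNA1 highest (log2 fold change 0.27 ± 0.07, adjusted p = 0.00217). KIF20B, which acts at the midbody, had 51, 69.6 and 61.6 CPM with MILIP siRNA2, 62.4, 84.5 and 63.8 CPM with MILIP siRNA1, and 100.3, 87.3 and 85.6 CPM with control siRNA. It fell with siRNA2 (log2 fold change -0.58 ± 0.10, adjusted p = 3.49e-05) and siRNA1 (log2 fold change -0.37 ± 0.10, adjusted p = 0.00398), and the siRNA libraries overlapped (log2 fold change -0.21 ± 0.10, adjusted p = 0.086 between them). With siRNA1, the call of KIF20B was lost in DESeq2 (adjusted p = 0.052), and between siRNAs it was gained without siRNA1 library 1 or 3 or siRNA2 library 2 (adjusted p = 0.0188 to 0.0457). KIF14, which recruits citron kinase to the midbody, averaged 35.6 ± 4.61 CPM with MILIP siRNA2, 50.6 ± 7.17 CPM with MILIP siRNA1 and 50.4 ± 4.21 CPM with control siRNA, and fell with siRNA2 (log2 fold change -0.50 ± 0.10, adjusted p = 0.000148) but was not called with siRNA1 (log2 fold change 0.01 ± 0.10, adjusted p = 0.95).

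Spindle, kinetochore and cytokinesis genes that are no members were listed beside the mitotic kinesins, 29 in all. With siRNA2, 26 of the 29 were lower and 1 higher (median log2 fold change -0.48), and with siRNA1 4 were lower and 10 higher (median 0.03). Of all tested genes, 28.9% were lower and 27.2% higher with siRNA2, and 25.3% lower and 25.1% higher with siRNA1. RACGAP1, the partner of KIF23 in centralspindlin, was lower with siRNA2 (-0.90, adjusted p = 2.19e-11) and higher with siRNA1 (0.25, adjusted p = 0.00192). AURKB, the kinase of the chromosomal passenger complex, fell with siRNA2 (-0.84, adjusted p = 1.58e-10) and was not called with siRNA1 (0.03, adjusted p = 0.704). CDC20, the activator of the anaphase-promoting complex, fell with siRNA2 (-0.88, adjusted p = 1.13e-11) and was not called with siRNA1 (-0.10, adjusted p = 0.163). TOP2A, which untangles sister chromatids, went down more with siRNA1 (-1.22, adjusted p = 9.8e-13) than with siRNA2 (-0.29, adjusted p = 0.00126; siRNA2 against siRNA1 0.92, adjusted p = 7.66e-11).

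Transport kinesins were called in both directions. Of 18, 14 were tested, and 11 were called with siRNA2, 6 lower and 5 higher (median log2 fold change -0.02), beside 56.1% of all tested genes called. Under siRNA1, 7 were called, 5 lower and 2 higher, with a median of -0.07, and 7 of 14 is near the background share (50.4% of all tested genes). KIF16B, which positions early endosomes, and KIF17, a ciliary and dendritic motor, were near 1 CPM and were called with neither. Per unit of length KIF5B stood highest in the class, at 52.6 ± 3.44 FPKM with MILIP siRNA2, 72.3 ± 8.05 FPKM with MILIP siRNA1 and 65.9 ± 1.72 FPKM with control siRNA (FPKM, fragments per kilobase of exon and 1e+06 counts; SD, n = 3 each). Among the 14 tested, KIF16B stood lowest with siRNA2, at 0.183 ± 0.0666 FPKM with MILIP siRNA2, 0.19 ± 0.0361 FPKM with MILIP siRNA1 and 0.21 ± 0.04 FPKM with control siRNA.

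**Figure D3:**
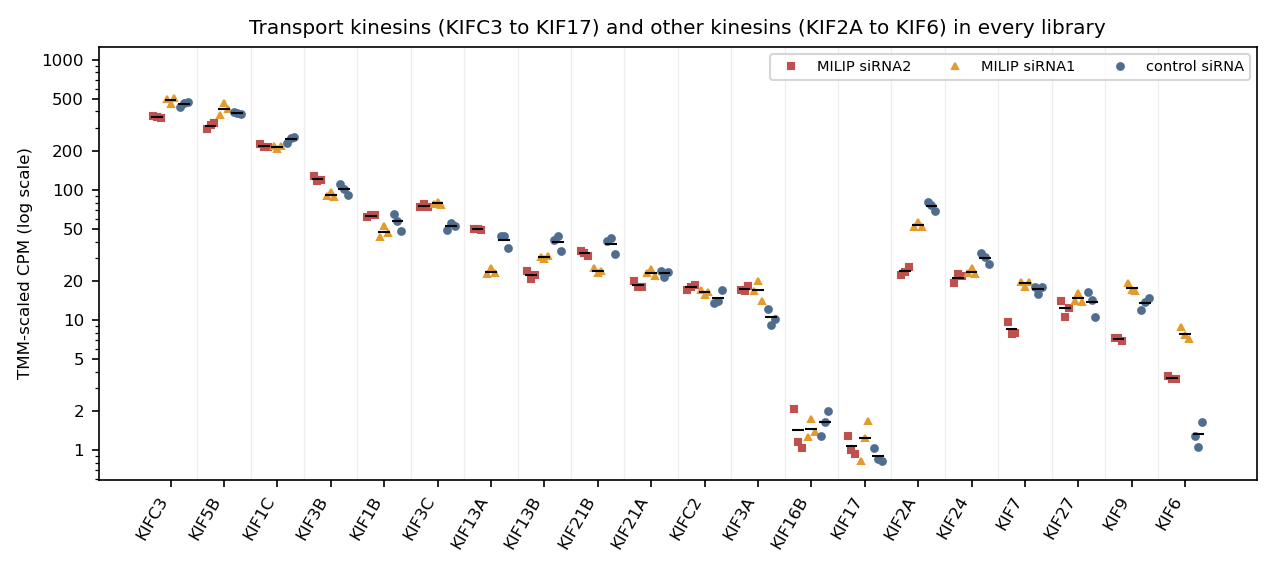
TMM-scaled CPM (log axis) of the 14 tested transport kinesins, from KIFC3 to KIF17, and the 6 tested other kinesins, from KIF2A to KIF6, in each of the 9 libraries, with bars at the group means. KIF13A is highest with MILIP siRNA2 (squares) and lowest with MILIP siRNA1 (triangles), KIF2A is lowest with siRNA2, and KIF6 is above control siRNA (circles) with both siRNAs.

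The kinesins of the heterotrimeric ciliary and cytoplasmic motor rose with both siRNAs, apart from KIF3B. KIF3A, the shared subunit of this motor, had 17.1, 16.8 and 18.4 CPM with MILIP siRNA2, 16.8, 19.8 and 14 CPM with MILIP siRNA1, and 12.1, 9.23 and 10.3 CPM with control siRNA. The control libraries were lowest and the siRNA groups overlapped (siRNA2 log2 fold change 0.72 ± 0.13, adjusted p = 2.42e-05; siRNA1 log2 fold change 0.68 ± 0.13, adjusted p = 8.02e-05). KIF3C, which pairs with KIF3A, had 73.3, 78.6 and 74.3 CPM with MILIP siRNA2, 77.8, 81.3 and 77.2 CPM with MILIP siRNA1, and 48.9, 55.7 and 53.2 CPM with control siRNA. Again no control library reached either siRNA group (siRNA2 log2 fold change 0.52 ± 0.07, adjusted p = 5.29e-07; siRNA1 log2 fold change 0.58 ± 0.07, adjusted p = 1.2e-07). KIF3B, the other partner of KIF3A, averaged 121 ± 5.24 CPM with MILIP siRNA2, 91.2 ± 3.95 CPM with MILIP siRNA1 and 101 ± 9.94 CPM with control siRNA, and rose with siRNA2 (log2 fold change 0.26 ± 0.07, adjusted p = 0.00281) and was not called with siRNA1 (log2 fold change -0.15 ± 0.07, adjusted p = 0.0789). Without control library 3 or siRNA1 library 2 KIF3B was called lower with siRNA1 (adjusted p = 0.00321 to 0.0387). KIFAP3, the accessory subunit that binds the heads to cargo, also rose with both (siRNA2 0.54, adjusted p = 7.06e-05; siRNA1 0.66, adjusted p = 7.61e-06).

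Motors of vesicles and endosomes were called in both directions. KIF13A, which carries cargo of recycling endosomes to the cell surface, had 50.5, 49.9 and 48.8 CPM with MILIP siRNA2, 22.6, 25 and 22.9 CPM with MILIP siRNA1, and 44.3, 44.2 and 35.7 CPM with control siRNA. With siRNA1 its level was below every other library (log2 fold change -0.82 ± 0.09, adjusted p = 2.93e-08), and with siRNA2 it was above every control library (log2 fold change 0.27 ± 0.08, adjusted p = 0.00843). Without control library 3 the call with siRNA2 was lost (adjusted p = 0.0703). KIF13B, its relative that transports membrane-associated scaffolds, had 23.7, 20.8 and 22.3 CPM with MILIP siRNA2, 30.7, 29.5 and 30.9 CPM with MILIP siRNA1, and 41.3, 44 and 34 CPM with control siRNA. It fell with siRNA2 (log2 fold change -0.83 ± 0.09, adjusted p = 3.79e-08) and with siRNA1 (log2 fold change -0.39 ± 0.09, adjusted p = 0.000967), with no overlap of any groups. KIF1B, a motor of mitochondria and synaptic vesicle precursors, averaged 63.1 ± 1.52 CPM with MILIP siRNA2, 47.6 ± 4.61 CPM with MILIP siRNA1 and 57.4 ± 8.52 CPM with control siRNA, and was called lower with siRNA1 (log2 fold change -0.27 ± 0.09, adjusted p = 0.0154) though its libraries overlapped control. This call was lost without control library 1 or siRNA1 library 1 (adjusted p = 0.15 and 0.0643), and without control library 1 KIF1B was called higher with siRNA2 (adjusted p = 0.0152). KIF1C, a motor of vesicles between Golgi and endoplasmic reticulum, fell slightly with both, averaging 217 ± 5.13 CPM with MILIP siRNA2, 213 ± 7.38 CPM with MILIP siRNA1 and 246 ± 13.3 CPM with control siRNA (siRNA2 log2 fold change -0.18 ± 0.06, adjusted p = 0.00916; siRNA1 log2 fold change -0.21 ± 0.06, adjusted p = 0.00417).

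KIF5B, the main heavy chain of conventional kinesin, had 292, 314 and 325 CPM with MILIP siRNA2, 377, 464 and 416 CPM with MILIP siRNA1, and 396, 389 and 381 CPM with control siRNA. The siRNA2 libraries were lowest (log2 fold change -0.32 ± 0.06, adjusted p = 0.000131) and the siRNA1 libraries overlapped control (log2 fold change 0.11 ± 0.06, adjusted p = 0.169). KIF21B, a motor that slows microtubule growth, had 33.9, 32.8 and 31.2 CPM with MILIP siRNA2, 25.2, 23.1 and 23.6 CPM with MILIP siRNA1, and 40.8, 42.8 and 32.2 CPM with control siRNA. The siRNA1 libraries were below all others (log2 fold change -0.69 ± 0.10, adjusted p = 1.53e-06), and the siRNA2 libraries overlapped control (log2 fold change -0.24 ± 0.09, adjusted p = 0.0296). Its call with siRNA2 was lost without control library 1 or 2 or siRNA2 library 2 or 3 (adjusted p = 0.0665 to 0.189) and in DESeq2 (adjusted p = 0.0573). KIF17 had 1.28, 1.01 and 0.931 CPM with MILIP siRNA2, 0.822, 1.23 and 1.69 CPM with MILIP siRNA1, and 1.05, 0.857 and 0.822 CPM with control siRNA. All groups overlapped, and it was called with neither (siRNA2 log2 fold change 0.24 ± 0.35, adjusted p = 0.582; siRNA1 log2 fold change 0.48 ± 0.35, adjusted p = 0.267). KIFC3, a minus-end motor of cell junctions, and KIF21A fell with siRNA2 (KIFC3 -0.33, adjusted p = 2.16e-05; KIF21A -0.30, adjusted p = 0.0079), and were not called with siRNA1 (KIFC3 0.09, adjusted p = 0.185; KIF21A 0.01, adjusted p = 0.924). Without siRNA1 library 2 KIFC3 was called higher with siRNA1 (adjusted p = 0.0473). KIFC2 was called higher with siRNA2 (0.27, adjusted p = 0.0301), a call lost without control library 1 or 2 or siRNA2 library 2 or 3 (adjusted p = 0.0759 to 0.109), and it was not called with siRNA1 (0.14, adjusted p = 0.294).

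Genes for light chains and cargo adaptors were called higher more often than lower. Of 17 listed, 14 were tested, and with siRNA2 10 were higher and 2 lower, while with siRNA1 9 were higher and 4 lower. The median log2 fold change was 0.38 with siRNA2 and 0.22 with siRNA1. The shares over all tested genes were 28.9% lower and 27.2% higher with siRNA2, and 25.3% lower and 25.1% higher with siRNA1. KLC4, a kinesin light chain, rose with siRNA2 (0.59, adjusted p = 8.48e-06) and with siRNA1 (0.99, adjusted p = 2.23e-09), and MAPK8IP3, a scaffold that links motors to axonal cargo, rose with siRNA2 (1.12, adjusted p = 3.86e-13) and with siRNA1 (0.69, adjusted p = 3.74e-09). KIFBP, which binds kinesin motor domains and keeps them off microtubules, fell with siRNA2 (-1.15, adjusted p = 1.48e-12) and with siRNA1 (-0.31, adjusted p = 0.000634). MAPK8IP1, another scaffold, was lower with siRNA2 (-1.17, adjusted p = 3.29e-08) and higher with siRNA1 (0.30, adjusted p = 0.0319). Of 25 dynein, dynactin and dynein adaptor genes, 10 were higher and 4 lower with siRNA2, and 7 higher and 4 lower with siRNA1. The shares called, 56% with siRNA2 and 44% with siRNA1, were near or below those of all tested genes (56.1% and 50.4%). SPDL1, which brings dynein to kinetochores, was the most lowered of these with siRNA2 (-1.04, adjusted p = 2.57e-11) and was not called with siRNA1 (0.14, adjusted p = 0.111).

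Of the 10 other kinesins, 6 were tested, and these 6 are known from cilia, centrioles or microtubule ends. With siRNA2 4 were lower and 1 higher, and with siRNA1 2 were lower and 2 higher (all tested genes: 28.9% lower and 27.2% higher with siRNA2, 25.3% lower and 25.1% higher with siRNA1). KIF2A, which takes microtubule ends apart at spindle poles and in neurons (chr5:62306162-62391025, plus strand, GRCh38), had 22.3, 23.4 and 25.4 CPM with MILIP siRNA2, 52.2, 56.7 and 51.9 CPM with MILIP siRNA1, and 80.3, 77 and 68.5 CPM with control siRNA. The 3 groups were apart, with siRNA2 at the bottom (log2 fold change -1.67 ± 0.08, adjusted p = 1.04e-14) and siRNA1 between (log2 fold change -0.49 ± 0.08, adjusted p = 7.59e-06), and no other member fell as far with siRNA2. KIF6, a motor of the motile cilium family, had 3.73, 3.5 and 3.55 CPM with MILIP siRNA2, 8.79, 7.68 and 7.18 CPM with MILIP siRNA1, and 1.3, 1.06 and 1.64 CPM with control siRNA. It was higher with both siRNAs, more so with siRNA1 (log2 fold change 2.55 ± 0.19, adjusted p = 6.64e-11) than with siRNA2 (log2 fold change 1.42 ± 0.21, adjusted p = 3.98e-06; siRNA2 against siRNA1 log2 fold change -1.13 ± 0.16, adjusted p = 1.41e-06), and the groups did not overlap.

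KIF7, which organises the tip of the primary cilium in Hedgehog signalling, had 9.71, 7.81 and 7.91 CPM with MILIP siRNA2, 19.7, 18.1 and 19.6 CPM with MILIP siRNA1, and 17.9, 16 and 17.9 CPM with control siRNA. The siRNA2 libraries were lowest (log2 fold change -1.03 ± 0.11, adjusted p = 2.6e-08) and siRNA1 was not called (log2 fold change 0.15 ± 0.10, adjusted p = 0.249). KIF9, a motor of motile cilia, had 7.25, 7.25 and 6.92 CPM with MILIP siRNA2, 19.4, 16.9 and 16.7 CPM with MILIP siRNA1, and 12, 13.7 and 14.7 CPM with control siRNA. All groups were apart, siRNA2 being lowest (log2 fold change -0.92 ± 0.12, adjusted p = 3.79e-07) and siRNA1 highest (log2 fold change 0.39 ± 0.11, adjusted p = 0.0043). KIF9-AS1 overlaps 14.9% of the exon bases of KIF9 on the opposite strand and TICRR 11.8% of those of KIF7, and their reads cannot be told apart without strand. KIF24, which restrains the growth of primary cilia at centrioles, had 19.1, 22.5 and 21.7 CPM with MILIP siRNA2, 23, 25.2 and 22.5 CPM with MILIP siRNA1, and 32.6, 30.7 and 27.1 CPM with control siRNA. It was lower with siRNA2 (log2 fold change -0.51 ± 0.09, adjusted p = 5.21e-05) and siRNA1 (log2 fold change -0.35 ± 0.09, adjusted p = 0.0028) than in any control library. KIF27, the relative of KIF7, had 13.9, 10.6 and 12.4 CPM with MILIP siRNA2, 13.9, 16.3 and 13.8 CPM with MILIP siRNA1, and 16.3, 14.3 and 10.5 CPM with control siRNA. Its groups overlapped and it was not called (siRNA2 log2 fold change -0.15 ± 0.14, adjusted p = 0.364; siRNA1 log2 fold change 0.10 ± 0.14, adjusted p = 0.567), and without control library 3 it was called lower with siRNA2 (adjusted p = 0.0387).

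Short words in 3 prime untranslated regions go with each siRNA in these libraries. Over all tested genes with a coding transcript, those whose 3 prime UTR held GACCCTA or ACCCTAA were called lower with siRNA2 in 46.1% of 1528, against 29.2% of 11112 without the word, and those with AATTCCA or ATTCCAA were called lower with siRNA1 in 44.4% of 3209, against 22.5% of 9431 without. The words were taken from earlier results of these same libraries and share letters with MILIP, and they are given as a description. Among tested members KIF2A, KIF7, KIF9 and KIF21B held the siRNA2 word, and 4 of 4 were lower with siRNA2. The call of KIF21B was among those lost under alternatives. Of the 42 tested members without the siRNA2 word, 24 (57.1%) were lower with siRNA2 as well. KIF20A, KIFC1, KIF13A, KIF16B, KIF1B and KIF1C held the siRNA1 word, of which 3 of 6 were lower with siRNA1 and KIF20A was higher. Of the 40 tested members without the siRNA1 word, 12 (30%) were lower with siRNA1. The siRNA2 word stood in only 12.1% of all tested genes with a coding transcript. None of the 12 tested mitotic kinesins and no tested tubulin held it. Sites of 29 bases are shown for KIF2A, which fell most with siRNA2, and for KIF9, KIF13A and KIF20A, which were called in opposite directions, at chr5:62386051-62386079 (plus strand) in KIF2A, chr3:47228154-47228182 (minus strand) in KIF9, chr6:17760520-17760548 (minus strand) in KIF13A and chr5:138187661-138187689 (plus strand) in KIF20A, read from GRCh38 with GENCODE v29 transcripts, and for MILIP itself at chr17:81930473-81930501 (plus strand) in MAFG-DT and chr17:81930349-81930377 (plus strand) in MAFG-DT. Capitals mark the word.
KIF2A: ttaaggctactGACCCTAaatttctgaag
KIF9: cagctccctcaGACCCTAagttctctcaa
MILIP, siRNA2 word: ggtaacatagaGACCCTAtcgctacaaga
KIF13A: aacctctacagATTCCAAcagactttatt
KIF20A: attttttattgAATTCCAaatgtagcaaa
MILIP, siRNA1 word: ggagtcagggcAATTCCAaccaagaaact
Whether these words take part in the change of KIF2A, KIF9 or KIF13A was not tested.

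Summed alpha tubulin levels, and summed beta tubulin levels with TUBB included, were lower with both siRNAs than with control siRNA. Alpha tubulin FPKM, summed over TUBA1A, TUBA1B, TUBA1C, TUBA4A and the other members, was 407, 423 and 439 FPKM with MILIP siRNA2, 565, 547 and 589 FPKM with MILIP siRNA1, and 734, 772 and 763 FPKM with control siRNA. Beta tubulin FPKM summed with TUBB was 1067, 1113 and 1141 FPKM with MILIP siRNA2, 1615, 1511 and 1625 FPKM with MILIP siRNA1, and 1810.0, 1912 and 1936 FPKM with control siRNA. In both sums the groups did not overlap, with siRNA2 lowest and control siRNA highest. Without TUBB, the beta members summed to 484, 487 and 492 FPKM with MILIP siRNA2. Their sums were 881, 791 and 891 FPKM with MILIP siRNA1 and 843, 909 and 940 FPKM with control siRNA, which overlapped. Among the 14 tested tubulins siRNA2 called 6 lower and 6 higher, and siRNA1 called 5 lower and 2 higher. Called were 85.7% with siRNA2 and 50% with siRNA1, beside 56.1% and 50.4% of all tested genes.

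**Figure D4:**
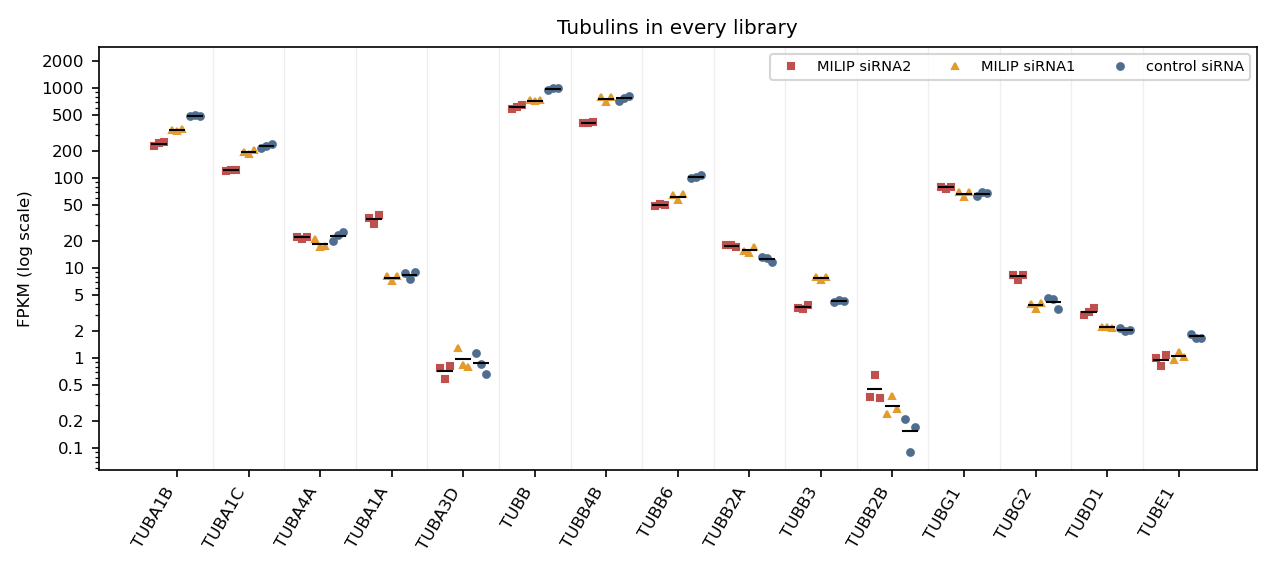
FPKM (log axis) of the 14 tested tubulin genes and TUBB in each of the 9 libraries, with MILIP siRNA2 as squares, MILIP siRNA1 as triangles and control siRNA as circles, and bars at the group means. TUBA1A stands above the other groups with siRNA2, TUBB3 with siRNA1, and TUBA1B, TUBA1C, TUBB and TUBB6 are below control with both siRNAs.

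TUBA1B, the most abundant alpha isotype (chr12:49127782-49131397, minus strand, GRCh38), had 228, 246 and 252 FPKM with MILIP siRNA2, 340.3, 336 and 356 FPKM with MILIP siRNA1, and 488, 509 and 489 FPKM with control siRNA. The groups were apart, with siRNA2 lowest (log2 fold change -1.03 ± 0.05, adjusted p = 1.6e-14) and siRNA1 between (log2 fold change -0.55 ± 0.05, adjusted p = 1.91e-09). AC011603.2, an antisense gene, covers 36.6% of the TUBA1B exon bases on the opposite strand. TUBA1C, the next most abundant, had 119, 124 and 125 FPKM with MILIP siRNA2, 194, 186 and 206 FPKM with MILIP siRNA1, and 215, 231 and 239 FPKM with control siRNA. It was lowest with siRNA2 (log2 fold change -0.90 ± 0.06, adjusted p = 1.02e-12), and also lower with siRNA1 than with control (log2 fold change -0.25 ± 0.06, adjusted p = 0.000451). TUBA1A, the isotype that prevails in developing neurons (chr12:49184795-49189080, minus strand, GRCh38), had 36, 31.3 and 38.6 FPKM with MILIP siRNA2, 8.11, 7.18 and 8.28 FPKM with MILIP siRNA1, and 8.82, 7.56 and 8.98 FPKM with control siRNA. The siRNA2 libraries stood far above the rest (log2 fold change 2.06 ± 0.09, adjusted p = 1.15e-15), 4.16-fold over control, while siRNA1 overlapped control (log2 fold change -0.13 ± 0.09, adjusted p = 0.257), and siRNA2 against siRNA1 gave log2 fold change 2.19 ± 0.09, adjusted p = 1.5e-16. TUBA1A and TUBA1C share 490 exon bases on opposite strands, and the coding sequences of TUBA1A, TUBA1B and TUBA1C are nearly alike, so counting may have split reads among them. With siRNA2, TUBA1A rose, and TUBA1B and TUBA1C fell. Whether shared reads take part in these changes was not tested.

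TUBA4A, an alpha isotype encoded without the final tyrosine, had 22.4, 21.2 and 22.3 FPKM with MILIP siRNA2, 20.9, 17.4 and 17.6 FPKM with MILIP siRNA1, and 20.1, 23.4 and 25 FPKM with control siRNA. Although 1 siRNA1 library reached the control range, siRNA1 lowered it (log2 fold change -0.32 ± 0.08, adjusted p = 0.00192), and siRNA2 gave no call (log2 fold change -0.06 ± 0.08, adjusted p = 0.574). TUBA3D, a testis isotype, was under 2 FPKM in every library and was called with neither siRNA (siRNA2 log2 fold change -0.31 ± 0.33, adjusted p = 0.442; siRNA1 log2 fold change 0.09 ± 0.32, adjusted p = 0.833). As a share of summed alpha tubulin FPKM, TUBA1A took 8.85%, 7.39% and 8.79% with MILIP siRNA2, 1.44%, 1.31% and 1.41% with MILIP siRNA1, and 1.2%, 0.98% and 1.18% with control siRNA. TUBA1B took 57.2% ± 1.06 with MILIP siRNA2, 60.7% ± 0.635 with MILIP siRNA1 and 65.5% ± 1.27 with control siRNA (SD, n = 3 each). TUBA1C took 29% ± 0.526 with MILIP siRNA2, 34.4% ± 0.535 with MILIP siRNA1 and 30.2% ± 1.02 with control siRNA, and its siRNA1 share was above that of every other library. An exact two-sided permutation test over 3 against 3 libraries gave p = 0.1, the smallest possible, for the shares of TUBA1A and TUBA1B in each comparison. The same exact test gave p = 0.2 for TUBA1C with siRNA2 against control siRNA and p = 0.5 for TUBA4A with siRNA1 against control siRNA, and p = 0.1 in their other comparisons.

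TUBB, the main beta tubulin gene, had 583, 626 and 649 FPKM with MILIP siRNA2, 734, 721 and 734 FPKM with MILIP siRNA1, and 968, 1003 and 996 FPKM with control siRNA. It fell with siRNA2 (log2 fold change -0.68 ± 0.05, adjusted p = 1.68e-11) and with siRNA1 (log2 fold change -0.47 ± 0.05, adjusted p = 1.75e-08). No groups overlapped. TUBB4B, next to TUBB in abundance with control siRNA, had 412, 412 and 420.1 FPKM with MILIP siRNA2, 793, 711 and 799.7 FPKM with MILIP siRNA1, and 725, 789 and 814 FPKM with control siRNA. The siRNA2 libraries were below all libraries of the other groups (log2 fold change -0.90 ± 0.06, adjusted p = 1.73e-12), and siRNA1 overlapped control (log2 fold change -0.04 ± 0.06, adjusted p = 0.569). TUBB6, a minor isotype whose excess disrupts microtubules, had 49.6, 51.7 and 49.9 FPKM with MILIP siRNA2, 64.4, 57.1 and 66 FPKM with MILIP siRNA1, and 99.98, 103 and 109 FPKM with control siRNA. Both siRNAs lowered it (siRNA2 log2 fold change -1.05 ± 0.06, adjusted p = 4.28e-13; siRNA1 log2 fold change -0.76 ± 0.06, adjusted p = 1.74e-10). AFG3L2 covers 20.3% of the TUBB6 exon bases on the opposite strand.

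TUBB3, the neuronal beta tubulin that is also made by drug-resistant tumours, had 3.59, 3.52 and 3.94 FPKM with MILIP siRNA2, 8.02, 7.41 and 8 FPKM with MILIP siRNA1, and 4.26, 4.45 and 4.32 FPKM with control siRNA. The siRNA1 libraries were far above control (log2 fold change 0.82 ± 0.09, adjusted p = 2.25e-08), and siRNA2 libraries were slightly below it (log2 fold change -0.24 ± 0.09, adjusted p = 0.0291). Its call with siRNA2 was lost without control library 1 or 2 or siRNA2 library 1 or 2 (adjusted p = 0.0582 to 0.117) and in DESeq2 (adjusted p = 0.0651). A readthrough gene, AC092143.1, shares 35.8% of its exon bases on the same strand. TUBB2A, a beta isotype common in brain, had 18.1, 18.1 and 17.3 FPKM with MILIP siRNA2, 15.6, 14.9 and 17.2 FPKM with MILIP siRNA1, and 13.4, 13.1 and 11.8 FPKM with control siRNA. It was higher than control with siRNA2 (log2 fold change 0.48 ± 0.09, adjusted p = 4.36e-05) and with siRNA1 (log2 fold change 0.29 ± 0.09, adjusted p = 0.00822). The call with siRNA1 was lost without control library 3 or siRNA1 library 3 (adjusted p = 0.0551 and 0.064). TUBB2B, nearly identical to TUBB2A, had 15, 27 and 13 counts with MILIP siRNA2, 8, 14 and 11 counts with MILIP siRNA1, and 7, 3 and 6 counts with control siRNA. It was called higher with siRNA2 (log2 fold change 1.55 ± 0.45, adjusted p = 0.00518), a call lost without siRNA2 library 2 (adjusted p = 0.0564), and not with siRNA1 (log2 fold change 0.90 ± 0.49, adjusted p = 0.137).

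Within the beta tubulins, TUBB4B took 38.6%, 37.1% and 36.8% with MILIP siRNA2, 49.1%, 47% and 49.2% with MILIP siRNA1, and 40.03%, 41.3% and 42% with control siRNA of summed FPKM. TUBB took 54.7%, 56.3% and 56.9% with MILIP siRNA2, 45.5%, 47.7% and 45.1% with MILIP siRNA1, and 53.5%, 52.4% and 51.5% with control siRNA. With siRNA1 the share of TUBB4B was above, and that of TUBB below, every library of the other groups. TUBB6 took 4.56% ± 0.159 with MILIP siRNA2, 3.94% ± 0.146 with MILIP siRNA1 and 5.51% ± 0.144 with control siRNA (SD, n = 3 each), and TUBB2A took 1.61% ± 0.0914 with MILIP siRNA2, 1% ± 0.0473 with MILIP siRNA1 and 0.679% ± 0.0676 with control siRNA.

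**Figure D5:**
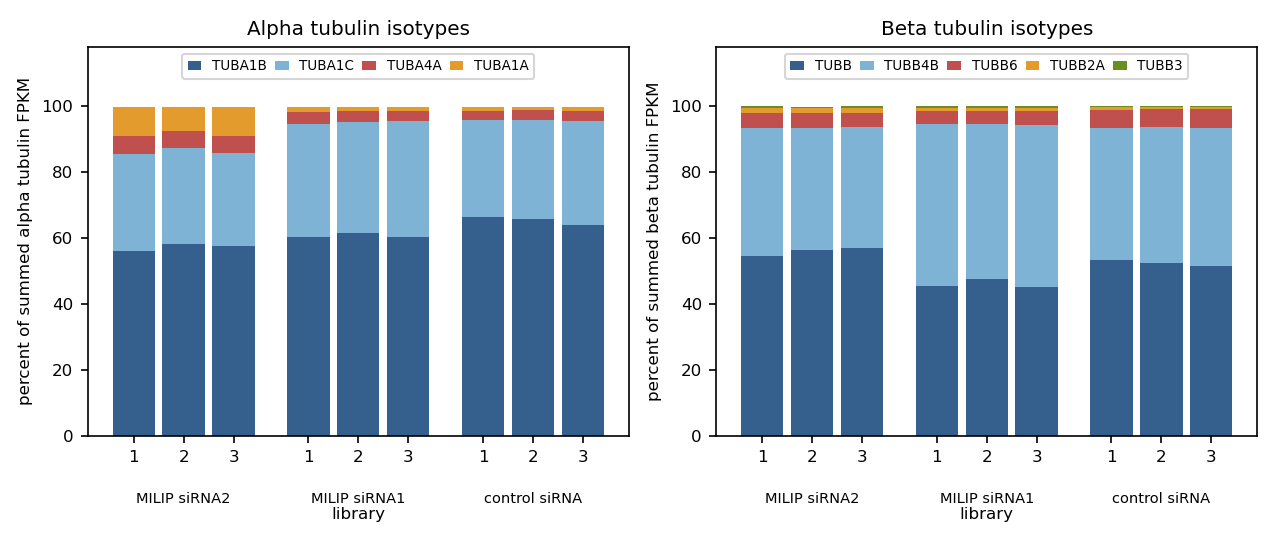
Share of each isotype in the summed FPKM of the alpha tubulins (left) and of the beta tubulins with TUBB (right), in percent, stacked for each of the 9 libraries. TUBA1A takes its largest share with MILIP siRNA2, and TUBB4B takes its largest share with MILIP siRNA1.

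The 4 gamma, delta and epsilon tubulins were all called with siRNA2, 3 higher and 1 lower (56.1% of all tested genes called). TUBG1, the main gamma tubulin of microtubule nucleation, had 80.8, 75.6 and 80.5 FPKM with MILIP siRNA2, 69.5, 61.9 and 69.4 FPKM with MILIP siRNA1, and 63, 70.1 and 69.1 FPKM with control siRNA. It rose with siRNA2 (log2 fold change 0.23 ± 0.06, adjusted p = 0.00403), and siRNA1 overlapped control (log2 fold change -0.04 ± 0.06, adjusted p = 0.666). TUBG2, its paralogue, had 8.38, 7.45 and 8.5 FPKM with MILIP siRNA2, 4.01, 3.5 and 4.15 FPKM with MILIP siRNA1, and 4.71, 4.52 and 3.53 FPKM with control siRNA. Every siRNA2 library was above every library of the other groups (log2 fold change 0.93 ± 0.11, adjusted p = 1.43e-07; siRNA1 log2 fold change -0.15 ± 0.12, adjusted p = 0.32). TUBD1, a delta tubulin of the centriole, had 3.01, 3.25 and 3.61 FPKM with MILIP siRNA2, 2.25, 2.23 and 2.18 FPKM with MILIP siRNA1, and 2.15, 1.98 and 2.04 FPKM with control siRNA. It rose with siRNA2 (log2 fold change 0.67 ± 0.12, adjusted p = 3.87e-05) and was not called with siRNA1 (log2 fold change 0.08 ± 0.13, adjusted p = 0.62). TUBE1, the epsilon tubulin that centrioles need for their triplet microtubules, had 1, 0.82 and 1.08 FPKM with MILIP siRNA2, 0.95, 1.17 and 1.02 FPKM with MILIP siRNA1, and 1.86, 1.69 and 1.69 FPKM with control siRNA. Control libraries were highest, and it fell with siRNA2 (log2 fold change -0.86 ± 0.13, adjusted p = 2.94e-06) and siRNA1 (log2 fold change -0.76 ± 0.13, adjusted p = 2.02e-05).

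Genes that fold new tubulin were lower more often than higher with siRNA2. Of 22 chaperonin, prefoldin and tubulin cofactor genes, 13 were lower and 1 higher with siRNA2, and 6 lower and 4 higher with siRNA1 (all tested genes: 28.9% lower and 27.2% higher with siRNA2, 25.3% lower and 25.1% higher with siRNA1). TTC5, which recognises nascent tubulin and starts the decay of its mRNA, fell with siRNA2 (-1.29, adjusted p = 1.18e-08) and siRNA1 (-0.47, adjusted p = 0.00308), and CCT6A, a chaperonin subunit, fell with siRNA2 (-0.37, adjusted p = 1.05e-06) and siRNA1 (-0.86, adjusted p = 7.8e-13). Of 18 tested modifying enzymes, 6 were lower and 3 higher with siRNA2, and 5 lower and 3 higher with siRNA1. The shares called, 50% and 44.4%, were below those of all tested genes (56.1% and 50.4%). TTLL12 fell with siRNA2 (-0.60, adjusted p = 3.78e-08) and further with siRNA1 (-3.09, adjusted p = 1.1e-19; siRNA2 against siRNA1 2.49, adjusted p = 1.87e-18), and TTL, which puts the final tyrosine back on alpha tubulin, fell with siRNA2 (-0.59, adjusted p = 1.49e-08) and further with siRNA1 (-1.98, adjusted p = 1.91e-17; siRNA2 against siRNA1 1.38, adjusted p = 7.24e-15). VASH2, an enzyme that removes this tyrosine, was lower with siRNA2 (-0.98, adjusted p = 0.0291) and higher with siRNA1 (0.78, adjusted p = 0.0405). Its level was low, with 7, 10 and 9 counts with siRNA2, 26, 28 and 31 with siRNA1, and 15, 15 and 15 with control siRNA.

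Of 20 genes of the gamma-tubulin ring, augmin and pericentriolar scaffold, 12 were lower and 2 higher with siRNA2, and 7 lower and 2 higher with siRNA1. Called were 70% with siRNA2 and 45% with siRNA1, beside 56.1% and 50.4% of all tested genes. TUBGCP4, a ring subunit, fell with siRNA2 (-0.70, adjusted p = 8.22e-06) and siRNA1 (-0.48, adjusted p = 0.000752). HAUS4, an augmin subunit that branches microtubules in the spindle, fell with siRNA2 (-0.77, adjusted p = 1.59e-06) and siRNA1 (-0.35, adjusted p = 0.00845). Of 25 tested microtubule-associated genes, 12 were lower and 9 higher with siRNA2, and 8 lower and 7 higher with siRNA1 (84% and 60% called, beside 56.1% and 50.4% of all tested genes). MAPRE1, the end-binding protein of growing microtubules, fell with siRNA2 (-0.94, adjusted p = 6.71e-13) and siRNA1 (-0.60, adjusted p = 2.51e-09). MAPRE3, its neuronal relative, rose with siRNA2 (0.71, adjusted p = 4.57e-05) and siRNA1 (0.79, adjusted p = 1.47e-05).

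The other 19 members were too low to test. TUBA3C, TUBB8B, KIF19, KIF26A, KIF12 and KIF1A, 6 genes, had 0 counts in every library, which allows up to 0.152 to 0.198 CPM at a limit of 3 counts per library (counting error alone). The remaining 13 (TUBA3E, TUBA4B, TUBA8, TUBAL3, TUBB1, TUBB4A, TUBB8, KIF2B, KIF4B, KIF25, KIF26B, KIF5A and KIF5C) had some counts, and none exceeded 9 counts in a library. The 19 include motors known from neurons, KIF1A, KIF5A and KIF5C, the platelet isotype TUBB1 and the oocyte isotype TUBB8.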

How the data were processed

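Libraries were placed in groups according to their treatment label. The deposited table gives a read count per gene and library, made by the authors, and FPKM values that the authors derived from those counts, since each count over exonic gene size and library total returned 100% of them within 0.005. Per the submitters' processing notes, Trimmomatic 0.30, HISAT2 2.0.1, HTSeq 0.6.1 and DESeq were used and hg19 was named, but the coordinates deposited with the genes are those of GRCh38. No source used here gives the strand setting of the counting, and reads of genes that overlap on opposite strands may be mixed: 25 tested members share exon bases with a gene on the opposite strand and 3 with one on the same strand, and near-identical copies (TUBA1A, TUBA1B and TUBA1C, TUBB2A and TUBB2B, KIF4A and KIF4B) may have split reads. The treatment text in the labels names siRNAs against PLANE where the series title and treatment labels name MILIP.

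The main test was the two-sided quasi-likelihood test of edgeR in 1 model of all 9 libraries, after filterByExpr (at least 10 counts, total at least 15) and TMM scaling (R 4.3.3, edgeR 4.0.16; DESeq2 1.42.0 and limma 3.58.1 for alternatives). P-values were adjusted over all 15345 tested genes, which held 99.9% of counts. A symbol rule removed 49 names ending in P and digits or in P: 44 pseudogenes and 5 TUBGCP genes, which were placed in the gamma-tubulin ring list. Members, classes, gene lists and words were chosen with earlier results of these data known. Values in every library are given for up to 6 tested members per class of at least 1 CPM with the largest change and for the most abundant by FPKM, and up to 4 genes are named per list. KIF11, KIF14, KIF20A, KIF22, KIF4A, KIF1B, KIF1C, KIF3B, KIF21A, KIFC2, KIFC3, KIFAP3, KIF16B and TUBB2B were added to that set after their values were seen. Promoters came from RefSeq and 3 prime untranslated regions from protein-coding transcripts of GENCODE v29, read with Python 3.11.15 (pandas 2.3.3, numpy 2.4.6, matplotlib 3.10.9).

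Depth was 15281220 to 19759371 counts, where 3 counts are 0.152 to 0.198 CPM, with a common biological coefficient of variation of 0.0641. In data simulated for siRNA1 against control, 50 of 50 genes were recovered at 1.5-fold and 50 of 50 at 2-fold. There were 13 false calls among 15345 genes. With 50 genes changed at each fold, the simulation held far fewer changes than the 7738 genes called with siRNA1. Changed genes were drawn only from those above a minimum CPM in the control libraries, which KIF16B, KIF17, TUBA3D and TUBB2B did not reach. Recovery was not broken down by expression level either, so the power for such low members remains unknown. The chi-square per gene between replicate libraries was 2.16 to 8.42, and none were duplicates. The alternatives tried were limma on log2 of the deposited FPKM plus 1 or 0.1, scaling by median of ratios, DESeq2, testing without a filter, a mean FPKM of at least 1, the 2 groups alone, a replicate block, each library left out, shares of counts in place of FPKM, and KIF2A counted as mitotic. One more, the removal of members with either UTR word, was chosen after seeing the data.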

Additional observations from a re-analysis of the deposited data

Results flagged for a closer look

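TUBB3, KIF20A, KIF9 and KIF13A, 4 members, were called in opposite directions by the siRNAs, as were 9.93% of all tested genes, so 4 of 46 is near the background. The log2 fold change of siRNA2 against siRNA1 was -1.0598 for TUBB3, -0.6545 for KIF20A, -1.3023 for KIF9 and 1.0821 for KIF13A. The genes were chosen for their opposite calls, which fixes that the siRNAs differ and in which direction, and these values are a description. The siRNA2 calls of TUBB3 and KIF13A against control depend on single libraries, and that of TUBB3 was also lost in DESeq2 (adjusted p = 0.0651), without a filter on low counts (adjusted p = 0.141) and with a mean FPKM of at least 1 (adjusted p = 0.0521).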

How the results depend on the processing

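Counts of called members kept within 1.5 times under every alternative run: leaving out each library gave 36 to 40 with siRNA2, 21 to 25 with siRNA1 and 33 to 35 between siRNAs, and DESeq2 gave 38, 21 and 34. All 12 tested mitotic kinesins were called lower with siRNA2 under each alternative that kept all 12. With siRNA1, where 3 were called lower and 1 higher, limma on FPKM gave 1 lower and 2 higher, DESeq2 gave 2 lower, and leaving out control library 2 gave 2 lower and siRNA1 library 2 gave 2 higher. Without members that hold either UTR word, chosen after seeing the data, 32, 15 and 25 members were called. This removed 6 tested members with the siRNA1 word and 4 with the siRNA2 word, so these counts are not out of 46. Of all tested genes, word holders included, 56.1%, 50.4% and 60.4% were called in the same order. Among single members, calls were counted once for each gene, comparison and alternative. In this count 19 were lost and 12 gained when a library was left out, and 16 lost and 9 gained under other alternatives. The same call can thus count several times. That of KIF21B with siRNA2 was lost in 4 fits with a library left out and under 5 other alternatives. No called direction reversed. Besides the losses given elsewhere, limma ended the siRNA1 calls of KIF20B (adjusted p = 0.0509 to 0.052), KIF18B (adjusted p = 0.063 to 0.0675) and KIF1B (adjusted p = 0.14 to 0.145), limma, the FPKM minimum and testing without a filter on low counts ended the siRNA2 call of KIF21B (adjusted p = 0.0604 to 0.118), and testing without a filter ended that of KIF1C (adjusted p = 0.0507). TUBB2A between siRNAs was called under 9 alternatives. The causes were not tested.

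With the replicate number as a block, 40, 22 and 34 members were called, and KIF20B between siRNAs gained its call (adjusted p = 0.0466). Same-numbered libraries correlated at -0.128 to 0.16 after removal of group means, and 5 of 9 libraries correlated best with one of their own number, so the numbers were not taken to pair libraries. In shares of summed counts in place of FPKM, siRNA2 minus control for TUBA1A was 6.03 percentage points, against 7.22 points in FPKM. No share difference reversed. Depth left 19 members untested.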

Other observations

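Of the motor and microtubule genes outside the member lists, NDE1, a binding partner of LIS1 and dynein, was lower with siRNA2 (log2 fold change -0.94, adjusted p = 1.19e-09; siRNA1 -0.17, adjusted p = 0.0983). Of the dynein light chains, DYNLT3 was higher with siRNA2 (0.69, adjusted p = 3.15e-05; siRNA1 0.02, adjusted p = 0.902), and DYNLL2 was lower with siRNA1 (-0.71, adjusted p = 3.26e-09; siRNA2 -0.13, adjusted p = 0.0991). HAUS7, an augmin subunit, and TUBGCP5, a ring subunit, were lower with siRNA2 (HAUS7 -1.27, adjusted p = 5.87e-05; TUBGCP5 -0.72, adjusted p = 2.69e-07), and neither was called with siRNA1 (HAUS7 -0.14, adjusted p = 0.626; TUBGCP5 0.11, adjusted p = 0.33). KATNA1, the microtubule-severing katanin subunit, was lower with siRNA2 (-0.94, adjusted p = 3.29e-07; siRNA1 -0.26, adjusted p = 0.0676), and MAP1A, a microtubule-stabilising protein of neurons, was higher with siRNA2 (1.29, adjusted p = 0.000418; siRNA1 0.29, adjusted p = 0.469). PFDN2, a prefoldin subunit that hands new tubulin to the chaperonin, was lower with siRNA2 (-0.59, adjusted p = 5.84e-08) and with siRNA1 (-0.22, adjusted p = 0.00828). ARL2, a regulator of tubulin cofactors, was higher with siRNA1 (0.53, adjusted p = 3.36e-06; siRNA2 -0.15, adjusted p = 0.109). VASH1, an enzyme that removes the final tyrosine of alpha tubulin, was lower with siRNA2 (-1.07, adjusted p = 0.0045; siRNA1 0.52, adjusted p = 0.106).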
